A study of Mus musculus with 70 samples.

Results

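The comparison described here set 4 libraries of microglia from mice of the Littman line against 4 libraries from mice of the Jung line, all titled as BLZ libraries and all from animals given tamoxifen, 8 of the 70 libraries of the series. Members were picked by title. Both they and the gene lists used below were chosen with earlier results of these data known. The shares of lists called, given beside the share of all genes, are therefore descriptive. Both lines are heterozygous for an insertion of CreERT2, a Cre recombinase that enters the nucleus when tamoxifen binds it, at Cx3cr1, the gene whose promoter drives the enzyme in microglia. The Jung animals also carried 1 copy of a Rosa26YFP reporter, and the Littman animals did not. The treatment label of the Littman libraries names BLZ945, an inhibitor of the CSF1 receptor that depletes microglia, together with tamoxifen, while that of the Jung libraries names tamoxifen alone. In the protocol, BLZ945 was given by mouth at 100 mg per kg for 5 days, and 4 mg tamoxifen in 200 µl oil was injected 2 times into mice of 6 to 15 weeks. The adult-titled Jung libraries of the series carry the BLZ945 label and no YFP allele in their genotype, so title and treatment label disagree for the Jung line, and the groups here follow the titles. Line, YFP allele and BLZ945 exposure therefore cannot be told apart in this contrast. The groups are called Littman Tam and Jung Tam, and the oil-injected libraries of the same table (3 Littman, labelled with BLZ945 and oil, and 4 Jung, labelled with oil only and carrying the same YFP allele) are called Littman Oil and Jung Oil.

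Microglia are the resident macrophages of the brain. They depend on CSF1 receptor signalling for survival, and a surveying, homeostatic state is marked by Cx3cr1, P2ry12, Sall1 and their partners. Type I interferon binds a receptor that activates a complex of transcription factors, among them STAT2 and IRF9, which binds an interferon-stimulated response element in promoters and switches on antiviral genes, chemokines and antigen presentation. Double-strand breaks, which Cre can cause, activate p53, whose targets include Cdkn1a, the cyclin-dependent kinase inhibitor p21, and Bax, a trigger of apoptosis.

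Each library came from 500 sorted CD11b+ CD45+ Ly6G- CD206- cells. Littman Tam libraries held 224642 to 236106 counts over 11431 to 11843 detected genes, and Jung Tam libraries 184513 to 197238 counts over 10990 to 11315 genes. The microglial markers Tmem119, P2ry12, Sall1, Siglech, Fcrls, Cx3cr1 and Csf1r were present in all 8 libraries, with Tmem119 at 1073 to 1675 CPM (counts divided by edgeR's effective library size and scaled to a fixed total) in Littman Tam and 1388 to 2137 in Jung Tam. Jung Tam 1 stood apart from the other Jung Tam libraries, as did Jung Oil 2 and Jung Oil 4, by a low share of cytosolic ribosomal protein transcripts (3.25%, 2.90% and 2.14% of counts). Neutrophil granule transcripts summed to 3312 CPM in Littman Tam 1 and to 3962 CPM in Littman Oil 3, and had 0 counts in the other 13 libraries of the table. By Xist and Y-linked transcripts, 3 Littman Tam and 1 Jung Tam libraries were female. Of the oil libraries, 0 of 3 Littman and 1 of 4 Jung were female. The labels do not say that replicates were separate animals, so the p-values measure only the spread between these libraries. In bulk RNA, fewer cells of a type and less RNA per cell cannot be told apart.

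Of 5163 genes tested with edgeR's quasi-likelihood test, 283 differed between Littman Tam and Jung Tam at a Benjamini-Hochberg adjusted p below 0.05, which is 5.48% of the genes tested and is the meaning of "called" throughout. Littman Tam was higher for 200 (3.87%) and lower for 83 (1.61%). The median log2 fold change over all genes tested, Littman minus Jung here and below, was -0.01. Among the genes named here, the 12 steepest higher ones were interferon-response genes, CC chemokines, Ms4a4c, Cd300lf and Cybb. Cdkn1a and Apoe were higher as well, and at least 8-fold differences were found for 33 higher genes and 1 lower gene. The lower genes included the microglial genes Cx3cr1, Slc2a5 and Adgrg1, and the actin-bundling gene Fscn1. An unadjusted p below 0.05 was reached by 941 genes. Without Littman Tam 1, the library with neutrophil transcripts, 237 genes were called, and without the 3 Jung libraries that stand apart 329 were. The number fell to 153 without Littman Tam 2, to 168 without Littman Tam 4 and to 181 without Jung Tam 1. The lower genes lost the larger share: 27 were called lower without Littman Tam 4 (141 higher), 33 without Littman Tam 2 (120 higher), 46 without Jung Tam 2 (150 higher), 52 without Jung Tam 1 (129 higher) and 36 with sex as a covariate (158 higher).

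**Figure D1:**
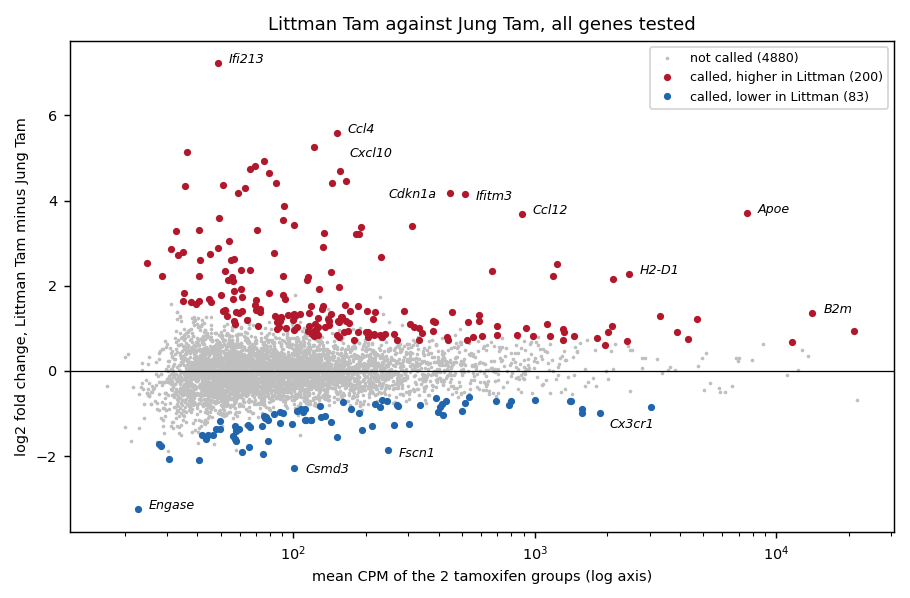
Each point is 1 of the 5163 genes tested, with the mean CPM of both tamoxifen groups on a log axis (x) and the log2 fold change of Littman Tam minus Jung Tam (y). The 200 called higher genes (red) reach 7.23 in Ifi213 and include abundant transcripts such as B2m and Apoe, while the 83 called lower genes (blue) reach -3.25 in Engase and -2.28 in Csmd3.

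The genes that carry the engineered alleles were examined first. Cx3cr1, the fractalkine receptor into which CreERT2 is inserted in both lines (chr9:120048683-120068296, GRCm38), was measured at 1237, 1136, 1501 and 1130 CPM in Littman Tam 1 to 4 and at 2363, 2700, 2473 and 2441 CPM in Jung Tam 1 to 4. Every Littman value lay below every Jung value, by 1.99-fold (log2 -1.0 ± 0.167 SE, adjusted p 1.55e-04 in edgeR). After oil the gap was smaller and did not pass the test, with 1969 to 2023 CPM in 3 Littman libraries and 2174 to 2819 CPM in 4 Jung libraries (log2 -0.39, adjusted p 0.191 in edgeR). Gt(ROSA)26Sor, the noncoding transcript of the locus that holds YFP in the Jung line (chr6:113067428-113077244), overlapped between the groups at 36.0 to 58.4 CPM in Littman Tam and 17.3 to 60.2 CPM in Jung Tam (log2 0.45, adjusted p 0.638 in edgeR). None of the 20 nearest tested neighbours of Cx3cr1, 10 on each side, was called, and none of the 20 nearest neighbours of Gt(ROSA)26Sor, against 5.48% of all genes. After oil 2 neighbours of Cx3cr1 and 1 of Gt(ROSA)26Sor were called, against 9.12% of all genes.

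Cdkn1a had the lowest p of all genes named here. The transcript of this p53 target (chr17:29090979-29100722) stood at 847, 786, 786 and 953 CPM in Littman Tam 1 to 4, against 68.9, 68.2, 27.4 and 17.3 CPM in Jung Tam 1 to 4. The Littman values lay close together and far above the highest Jung value, an 18.2-fold difference (log2 4.19 ± 0.285, adjusted p 9.29e-12 in edgeR). Littman Oil libraries held 119, 93.9 and 175 CPM and Jung Oil libraries 22.5 to 62.8 CPM, so that the oil-treated Littman libraries sat above all Jung libraries and below all tamoxifen-treated Littman libraries (oil log2 1.79, adjusted p 0.00113 in edgeR). Bax was next among the p53 targets. It was measured at 205, 206, 166 and 198 CPM in Littman Tam and at 79.5, 85.3, 71.1 and 46.1 CPM in Jung Tam, without overlap (log2 1.45 ± 0.241, adjusted p 1.38e-04 in edgeR), and was not called after oil (log2 0.46, adjusted p 0.359 in edgeR). Ccng1, cyclin G1, a further p53 target, was higher as well, at 70.5 to 161 CPM against 17.1 to 49.2 CPM (log2 1.44, adjusted p 0.0178 in edgeR), a call that was lost without Littman Tam 4, without Jung Tam 2 or with sex as a covariate. These were the 3 called genes of 13 tested on the p53 and DNA damage list (23.1%, against 3.87% of all genes called higher), whose median was 0.75, and 2 of the 13 were called with sex as a covariate. Mdm2, the ubiquitin ligase that p53 induces to limit itself, had a log2 difference of 0.73 that did not pass (adjusted p 0.209 in edgeR), and Trp53 one of -0.26. Without Littman Tam 4 the median of the list was 0.18, with 2 of 11 genes called.

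**Figure D2:**
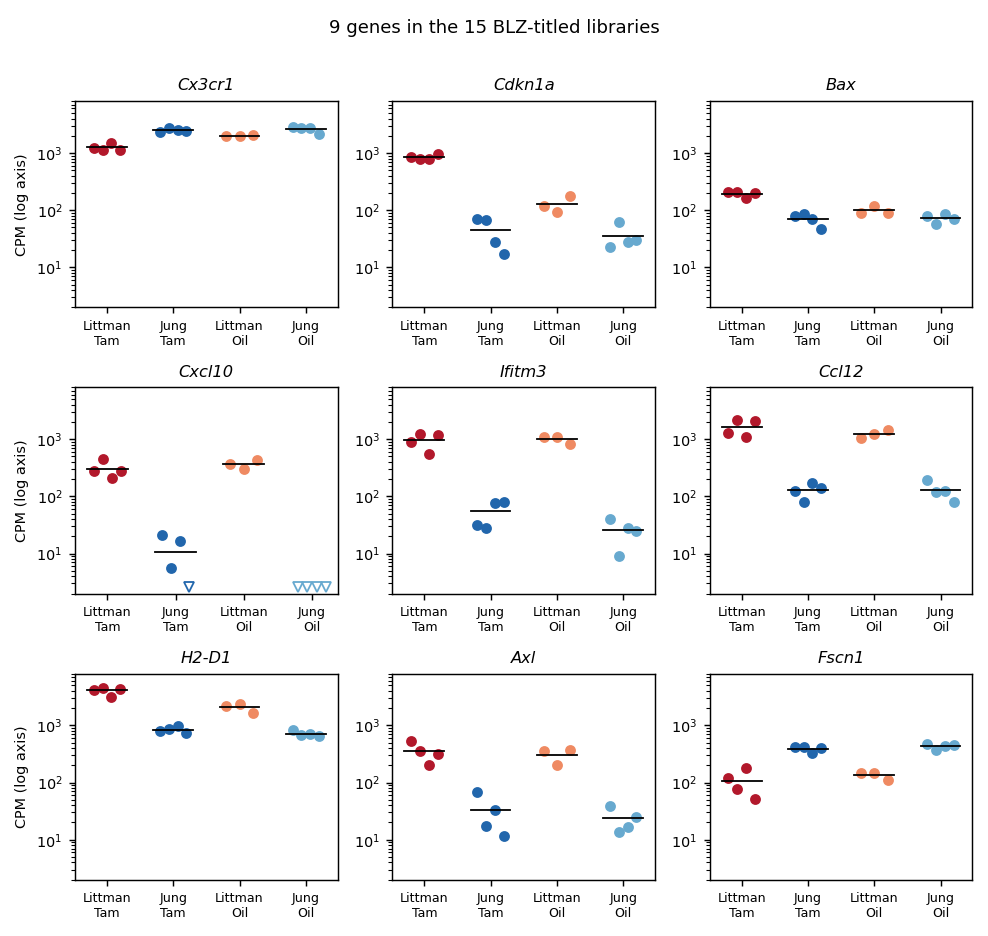
Each panel plots 1 gene with CPM on a log axis (y) for the 15 BLZ-titled libraries by group (x); points are libraries, horizontal lines group means and open triangles at the bottom libraries with 0 counts. Cdkn1a is high in Littman Tam (786 to 953 CPM) and intermediate in Littman Oil (93.9 to 175 CPM), whereas Cxcl10, Ifitm3 and Ccl12 are about as high in Littman Oil as in Littman Tam.

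The type I interferon list gave the broadest difference. Of 46 members tested, 42 were called higher in Littman Tam (91.3%, against 3.87% of all genes), none was called lower, 41 of the calls were at least 2-fold, and the median was 2.35. In 40 of the 42 the 4 Littman values lay above the 4 Jung values. A call itself favours separated groups, so this count and those for the lists below only describe the values. The share of separated genes among all called genes was not counted. Ccl12, a chemokine for monocytes, was measured at 1257, 2205, 1073 and 2047 CPM in Littman Tam 1 to 4 and at 122, 79.6, 170 and 138 CPM in Jung Tam 1 to 4. The groups were far apart, by 12.8-fold (log2 3.68 ± 0.270, adjusted p 2.42e-11 in edgeR). Ifitm3, a membrane protein that blocks virus entry, was 17.7-fold higher (log2 4.15 ± 0.305, adjusted p 2.42e-11 in edgeR), at 901, 1239, 554 and 1188 CPM against 31.8, 28.4, 76.6 and 80.6 CPM. Lgals3bp, a secreted glycoprotein, was among the most abundant members, at 2430, 2410, 1425 and 2188 CPM against 355, 307, 438 and 392 CPM (log2 2.50, adjusted p 2.66e-10 in edgeR). Littman Tam 3 had the lowest value of its group for each of these 3 genes, and still exceeded every Jung library.

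Other members differed more steeply from very low Jung values. Cxcl10, a ligand of the T cell chemokine receptor CXCR3, was measured at 273, 447, 206 and 281 CPM in Littman Tam and at 21.2, 5.68, 16.4 and 0 CPM in Jung Tam (log2 4.69 ± 0.409, adjusted p 2.95e-09 in edgeR). Ifi213, a member of the HIN-200 family of nucleic acid sensors, had 77 counts in Littman Tam and 0 in Jung Tam, at least 23.4-fold higher when 3 counts over the group are set as the floor. Its relative Ifi206 had 56 counts against 1, a ratio of 51.1 with an exact 95% interval of 8.80 to 2053 that covers counting error only. Oas2, which makes the second messenger that activates RNase L, was at 95.7 to 195 CPM in Littman Tam and at 0 to 10.6 CPM in Jung Tam. Oasl2, a relative of it, was at 257 to 293 CPM against 0 to 31.8 CPM (log2 4.64 and 4.41, the latter 5.46 without Jung Tam 1). Ifi27l2a, a small interferon-induced membrane protein, was 10.6-fold higher.

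The signalling genes of the pathway were part of the same set. Irf7, the transcription factor that amplifies interferon production, was at 117, 128, 111 and 125 CPM in Littman Tam and at 0, 0, 16.4 and 5.76 CPM in Jung Tam (log2 4.28, and 5.58 without Jung Tam 3). Stat2 was called at log2 2.22, whereas Irf9, which joins it in the same complex, had a difference of 0.51 that did not pass (adjusted p 0.353 in edgeR). Ifih1, Slfn8 and Samhd1 were the other members not called, with positive differences of 1.27, 0.79 and 0.42. Summed over the list, Littman Tam libraries held 14606, 18537, 11733 and 16238 CPM and Jung Tam libraries 3317, 3535, 4010 and 3351 CPM. No Littman sum came near a Jung sum. Without Littman Tam 1, the library with neutrophil transcripts, 41 of the 46 genes were called and the median was 2.37. Monocyte markers were higher in the same libraries, at a summed 141 to 568 CPM in Littman Tam against 10.6 to 17.1 CPM in Jung Tam, and their part in the differences of this and the following lists was not tested.

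**Figure D3:**
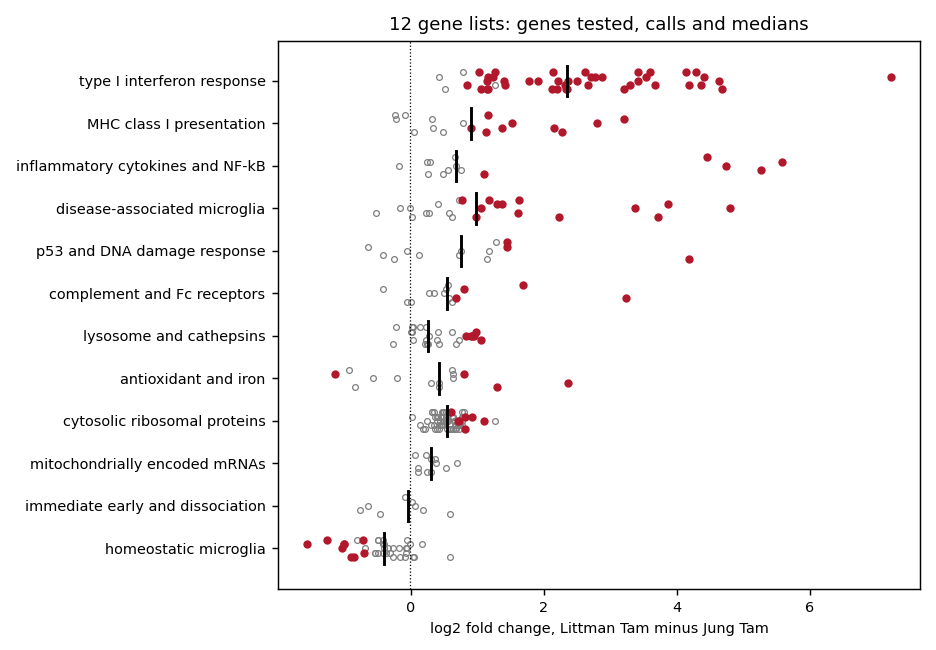
Each point is a tested gene of 1 of 12 lists (y), placed by its log2 fold change, Littman Tam minus Jung Tam (x); filled red points were called, open points were not, black bars are list medians, and the dotted line is the median of all genes tested. The interferon list is centred on 2.35 and the homeostatic list on -0.41.

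Promoters were searched for the letters GAAANNGAAA, a core of the interferon-stimulated response element, in either orientation (TTTCNNTTTC when reversed) over 250 bases before each gene's RefSeq start on GRCm38.p6. Genes with several starts counted once, as holding the motif if any window did, however many matches it held. The letters occurred in 978 of 32851 windows (2.98%), at 936 of 27025 RefSeq genes (3.46%) and at 147 of the 4075 tested genes that matched a RefSeq entry (3.61%). Among called higher genes they occurred at 26 of 149 matched (17.4%), and among called lower genes at 2 of 59 (3.39%). Of the 42 called interferon genes, 31 matched and 15 of these held the letters (48.4%). Called higher genes outside that list held them at 11 of 118 (9.32%). A match describes letters in a window and was not tested as a binding site. The windows of the 6 called interferon genes of lowest p that hold the motif, and of B2m as an antigen presentation gene, are shown because the interferon list gave the broadest difference; each runs 5′ to 3′ on the strand of the gene, with the motif in capitals and 20 bases on each side.
Cxcl10: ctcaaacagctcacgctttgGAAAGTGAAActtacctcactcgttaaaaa
Bst2: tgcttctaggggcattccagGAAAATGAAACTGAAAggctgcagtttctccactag
Slfn5: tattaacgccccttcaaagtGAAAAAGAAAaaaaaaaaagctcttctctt
Ifit3: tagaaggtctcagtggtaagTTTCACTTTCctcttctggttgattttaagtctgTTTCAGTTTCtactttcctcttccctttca
Ifi213: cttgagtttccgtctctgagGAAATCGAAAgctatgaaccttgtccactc
Phf11b: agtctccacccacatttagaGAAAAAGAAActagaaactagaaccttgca
B2m: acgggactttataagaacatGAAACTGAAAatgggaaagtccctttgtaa

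On GRCm38 these windows are chr5:92349073-92349122 (Cxcl10, minus strand), chr8:71537567-71537622 (Bst2, minus), chr11:82951927-82951976 (Slfn5, plus), chr19:34583353-34583436 (Ifit3, plus), chr1:173599316-173599365 (Ifi213, minus), chr14:59341351-59341400 (Phf11b, minus) and chr2:122147528-122147577 (B2m, plus). All lie upstream of the RefSeq start, and the distance from the first capital to that start ranged from 50 bases in Phf11b to 213 bases in Cxcl10. The gene span of Ifi213 in the annotation used for gene positions, chr1:173566280-173599348, ends inside its window. Bst2 holds overlapping matches, and Ifit3 holds separate matches in the reversed orientation. Bst2, which tethers budding virus at the cell surface, was at 1198, 1434, 821 and 1000 CPM in Littman Tam and at 191, 176, 279 and 230 CPM in Jung Tam, without overlap (log2 2.34). Slfn5, Ifit3 and Phf11b were higher by log2 3.54, 3.42 and 2.21.

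Genes of MHC class I presentation were higher, but not across the whole list: 9 of 17 tested members were called, all higher (52.9%, against 3.87% of all genes), and the median was 0.91. H2-D1, a classical heavy chain, was at 4208, 4548, 3168 and 4376 CPM in Littman Tam and at 737 to 963 CPM in Jung Tam, 4.85-fold higher and without overlap (log2 2.28 ± 0.184, adjusted p 2.11e-10 in edgeR). H2-K1 was 4.47-fold higher, at 3818, 4065, 2583 and 3318 CPM against 671 to 930 CPM. B2m, the light chain shared by class I molecules, was one of the most abundant transcripts, at 20260, 24622, 18839 and 18113 CPM against 6295, 8026, 9366 and 7929 CPM. Its groups were also apart, by 2.59-fold (log2 1.37 ± 0.206, adjusted p 2.58e-05 in edgeR). Tap1, a subunit of the peptide transporter, was called at log2 1.52. Its partner Tap2 had a value of -0.22 and the chaperone Tapbp one of -0.24, neither called. H2-Q7 was called at log2 3.21, but counts of H2-Q7 and the other class I heavy chains may be split between near-identical copies, so their separate values are uncertain. None of 4 tested MHC class II genes was called, against 5.48% of all genes. The invariant chain Cd74 had a log2 value of 1.18 and H2-Ab1 one of 1.38 (adjusted p 0.252 and 0.194 in edgeR).

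Secreted inflammatory genes divided by family. On the list of inflammatory cytokines and NF-kB genes, 5 of 14 tested members were called, all chemokines, all higher (35.7%, against 3.87% of all genes), and all called after oil too. The median was 0.68, and 13 of the 14 values were above 0. Ccl2, the main ligand of the monocyte receptor CCR2, was at 200, 339, 116 and 297 CPM in Littman Tam and at 0, 0, 16.4 and 5.76 CPM in Jung Tam (log2 5.26 ± 0.532, adjusted p 1.91e-08 in edgeR; 6.56 without Jung Tam 3). Ccl4, a chemokine for monocytes and T cells, was at 141, 606, 262 and 177 CPM against 5.30, 0, 5.47 and 11.5 CPM. Littman Tam 2 was the highest library for Ccl2 and for Ccl4, and the Ccl4 difference of log2 5.58 was 4.97 without it. Ccl3, the neighbour of Ccl4 on chromosome 11, had 101 counts against 3, a ratio of 30.7 with a counting interval of 10.2 to 151. Ccl5, a chemokine for T cells, was at 365, 617, 156 and 130 CPM against 5.68 to 23 CPM (log2 4.45). The fifth, Cxcl16, was called at log2 1.11 and lost its call without Littman Tam 2. Il1a, Nlrp3, Nfkb1 and Nfkb2 were tested and not called, at log2 values from -0.18 to 0.48. None of the 8 tested immediate early and dissociation-responsive genes was called, against 5.48% of all genes, and their median was -0.03.

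Markers of the disease-associated microglial state were also higher. Of 23 tested, 13 were called, all higher (56.5%, against 3.87% of all genes) and all with separated groups, and the median was 0.99. A call favours separated groups, so the separation only describes the values. Summed monocyte markers were also higher, at 234, 231, 141 and 568 CPM in Littman Tam 1 to 4 against 10.6 to 17.1 CPM in Jung Tam; without Littman Tam 4, the library with the highest sum, 12 of the 23 were called. Axl, a receptor kinase that takes up dying cells, was at 526, 355, 201 and 318 CPM in Littman Tam and at 68.9, 17.1, 32.8 and 11.5 CPM in Jung Tam, without overlap (log2 3.38 ± 0.365, adjusted p 7.30e-08 in edgeR; 4.03 without Jung Tam 1). Its ligand Gas6 was called at log2 0.92, a call lost without any 1 library other than Littman Tam 3, while Mertk, the related receptor, had a value of -0.40 and was not called. Clec7a, the beta-glucan receptor dectin-1, was at 195, 242, 70.5 and 182 CPM against 0 to 21.9 CPM. Cd52, a surface glycoprotein, was at 1586 to 2359 CPM against 291 to 512 CPM, and these genes each separated the groups fully (log2 3.88 and 2.23). Apoe, the lipid carrier, chosen for mention after its values were seen, spread most within its group, at 4573, 10895, 2452 and 38534 CPM in Littman Tam 1 to 4 against 588, 881, 1483 and 1336 CPM in Jung Tam. The lowest Littman value was still above the highest Jung value (log2 3.72 ± 0.513, adjusted p 6.32e-06 in edgeR). Littman Tam 4 held far more Apoe than any other library, and the log2 difference was 2.48 without it. Trem2, the lipid receptor that gates the state, and its adaptor Tyrobp had values of -0.15 and 0.27 and were not called.

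Receptors and enzymes of uptake and digestion were called for some members only. Fcgr4, an activating IgG receptor, was at 127, 231, 101 and 516 CPM against 10.6, 51.2, 27.4 and 11.5 CPM, and its log2 difference of 3.24 was 2.58 without Littman Tam 4. The receptor C5ar1 was called at log2 1.69, and lost its call without Jung Tam 1 or Jung Tam 2. C1qb and C3ar1 were called at 0.68 and 0.80; both calls were lost without Jung Tam 1, Jung Tam 2, Littman Tam 2 or Littman Tam 4, C1qb also without Jung Tam 4 and C3ar1 also without Jung Tam 3. These 4 were the calls among 14 tested complement and Fc receptor genes (28.6%, against 3.87% of all genes called higher; median 0.55). The list had 1 call without Jung Tam 1 or without Littman Tam 4, and 2 without Jung Tam 2, without Littman Tam 2, in limma-voom or with sex as a covariate. Cybb, the catalytic subunit of the phagocyte NADPH oxidase, was at 190, 113, 70.5 and 276 CPM against 0 to 11.5 CPM (log2 4.42). Of 26 lysosomal genes tested, 6 were called, all higher (23.1%, against 3.87% of all genes) and all of them called after oil as well, where 6.72% of all genes were called higher. The list median was 0.27. They included the cathepsins Ctsb and Ctss, which were higher by 2.09-fold and 1.93-fold, the progranulin gene Grn by 1.89-fold and the cholesterol carrier Npc2 by 1.87-fold. Psap and Lamp1 were not called, at log2 values of 0.00 and 0.21.

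Homeostatic microglial genes lay lower in Littman Tam. Of 38 tested, 9 were called, all lower (23.7%, against 1.61% of all genes), and the median was -0.41. In 6 of the 9 the groups did not overlap, a count that only describes the values because a call favours separated groups. Cx3cr1, which holds the CreERT2 insertion in both lines and is described above, was 1 of the 9. Slc2a5, the fructose transporter that marks microglia, was at 175, 221, 237 and 78.1 CPM in Littman Tam and at 323, 512, 372 and 501 CPM in Jung Tam (log2 -1.26 ± 0.260, adjusted p 0.00227 in edgeR). Adgrg1, an adhesion receptor, was at 278, 247, 433 and 135 CPM against 488, 631, 613 and 518 CPM (log2 -1.04, adjusted p 0.00458 in edgeR). P2ry12, the ADP receptor of process extension, was called at log2 -0.85 (adjusted p 0.0421 in edgeR) although its groups overlapped, at 2109, 1943, 3480 and 1130 CPM against 2914, 3911, 4130 and 4624 CPM. Littman Tam 4 was the lowest and Littman Tam 3 the highest Littman library for each of these 3 genes. Ecscr, Fcrls, Gpr34, Rhob and Sall1, the last a transcription factor that holds microglial identity, were called at log2 -1.55, -1.0, -0.89, -0.71 and -0.70. The P2ry12 call was lost without any 1 library other than Littman Tam 3 and Jung Tam 1. The calls of Fcrls, Gpr34 and Sall1 were lost without Littman Tam 2, Littman Tam 4 or Jung Tam 4, Fcrls also without Littman Tam 1 and Sall1 also without Jung Tam 2, and that of Rhob without Littman Tam 1 or Littman Tam 4. The list had 4 calls without Littman Tam 4, 5 without Littman Tam 2 or without Jung Tam 4, and 14 without the 3 Jung libraries that stand apart. With sex as a covariate it had 6. Tmem119, Siglech and Csf1r had values of -0.26, -0.34 and -0.49 and were not called. Summed over the list, Littman Tam 1 to 4 held 61740, 57091, 75139 and 40519 CPM, against 67997 to 93462 CPM in Jung Tam. Littman Tam 4, the lowest of these sums, had the highest sum of monocyte markers (568 CPM), and Littman Tam 3, the highest Littman sum, had the lowest Littman one (141 CPM). The part of those markers in this result was not tested.

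The steepest lower genes were mostly outside that list. Fscn1, which bundles actin in filopodia, was at 122, 77.1, 176 and 52.1 CPM in Littman Tam and at 413, 415, 328 and 397 CPM in Jung Tam, 3.61-fold lower and without overlap (log2 -1.85 ± 0.245, adjusted p 3.00e-06 in edgeR). Csmd3, a large transmembrane protein with complement-control domains, was at 39.0, 15.4, 80.6 and 0 CPM against 170, 205, 131 and 167 CPM (log2 -2.28, adjusted p 3.34e-04 in edgeR). Both were also called lower after oil, at log2 -1.66 and -2.82, and the Csmd3 difference after tamoxifen was -3.13 without Littman Tam 3. Igf1r, the receptor of insulin-like growth factor 1, was at 15.4 to 45.3 CPM against 54.7 to 154 CPM (log2 -1.79). Bcl9l, a coactivator of beta-catenin, was at 35.3 to 41.7 CPM against 85.3 to 207 CPM (log2 -1.64). The groups of Igf1r and Bcl9l did not overlap. Abcb4, a phospholipid exporter, and Upk1b, a tetraspanin, were called at log2 -2.09 and -1.95 (Upk1b -3.08 without Littman Tam 3). Engase, a cytosolic glycosidase, had 3 counts against 30, a ratio of 0.0912 with a counting interval of 0.0178 to 0.293. Ppm1l, Sema4b, Ccdc85c, Padi2 and Mib2 completed the 12 lowest, at log2 -2.07, -1.91, -1.76, -1.71 and -1.65 (Sema4b -2.78 without Littman Tam 3). Their calls did not hold in every fit without 1 library. Those of Ppm1l and Sema4b were lost without Littman Tam 1 or Littman Tam 4. That of Mib2 was lost without Jung Tam 1, Littman Tam 2 or Littman Tam 4. That of Ccdc85c was lost without any 1 library other than Littman Tam 1 and Littman Tam 3. Padi2 passed the filter on low counts in 2 of the 8 fits without 1 library and lost its call in 1 of these, without Jung Tam 1. Over the 11 alternatives in which it was tested, it lost the call in 7, among them DESeq2, limma-voom and sex as a covariate. The calls of Ppm1l and Ccdc85c were lost with sex as a covariate too.

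Smaller sets mixed directions. Fth1, the ferritin heavy chain, was 2.46-fold higher, at 3389 to 6329 CPM against 1235 to 2380 CPM, and the selenoprotein Selenow was called at log2 2.37, a call lost in limma-voom (adjusted p 0.0560). Slc40a1, the iron exporter ferroportin, was called lower at log2 -1.14, a value of -1.85 without Littman Tam 3 and a call lost without any 1 of the other 7 libraries. Together with Gpx1, a call lost without any 1 library other than Littman Tam 1, Littman Tam 3 and Jung Tam 4, these were the calls among 14 antioxidant and iron genes (3 higher, 1 lower, 28.6% against 5.48% of all genes, median 0.43). Of 11 glucocorticoid-responsive genes tested, Glul, glutamine synthetase, was lower, at 504 to 604 CPM against 869 to 1057 CPM (log2 -0.81, adjusted p 0.00270 in edgeR), and Txnip, an inhibitor of thioredoxin, was lower at log2 -0.76, a call lost without Littman Tam 1 or Littman Tam 2. Cdkn1a was the 1 member called higher, so that 27.3% of the list was called, against 5.48% of all genes. The glucocorticoid sensors Fkbp5 and Tsc22d3 had values of 1.00 and -0.45 and were not called. On the cell cycle list the G1 cyclin Ccnd1 was called at log2 1.37. It was the 1 call of 6 genes tested (16.7%, against 3.87% of all genes called higher). The call was lost without any 1 library other than Littman Tam 1 and Littman Tam 3.

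Cytosolic ribosomal protein genes also leaned higher in Littman Tam. The 3 Jung libraries that stand apart were set apart by a low share of these same transcripts. Fits without them therefore only describe the values. All 69 tested members had positive log2 differences, with a median of 0.55, but 7 were called (10.1%, against 3.87% of all genes called higher). After oil 66 of the 69 were called higher, with a median of 1.29, against 6.72% of all genes. The summed level there was 84036 to 95013 CPM in Littman Oil and 20280 to 51216 CPM in Jung Oil, where Jung Oil 2 and Jung Oil 4 were the lowest. After tamoxifen the summed level was 65370 to 88666 CPM in Littman Tam and 32282, 55612, 65824 and 53186 CPM in Jung Tam 1 to 4. The groups overlapped in Jung Tam 3, and Jung Tam 1 was far below the rest. Without Jung Tam 1 the median was 0.37 and 1 gene was called, and without all 3 Jung libraries that stand apart it was 0.37 with 14 called. The calls also numbered 1 without Littman Tam 2, 2 without Littman Tam 4, 3 without Littman Tam 1, Jung Tam 2 or Jung Tam 4, and 12 without Littman Tam 3 or Jung Tam 3. Rps19 was the gene of lowest p, at 1198 to 1922 CPM against 461 to 898 CPM (log2 1.11). Ribosomal protein genes have many processed copies, so single values are uncertain. None of 11 mitochondrially encoded mRNAs was called, against 5.48% of all genes, but all 11 values were above 0 (median 0.31). They summed to 31944 to 46731 CPM in Littman Tam and 25589 to 35812 CPM in Jung Tam.

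**Figure D4:**
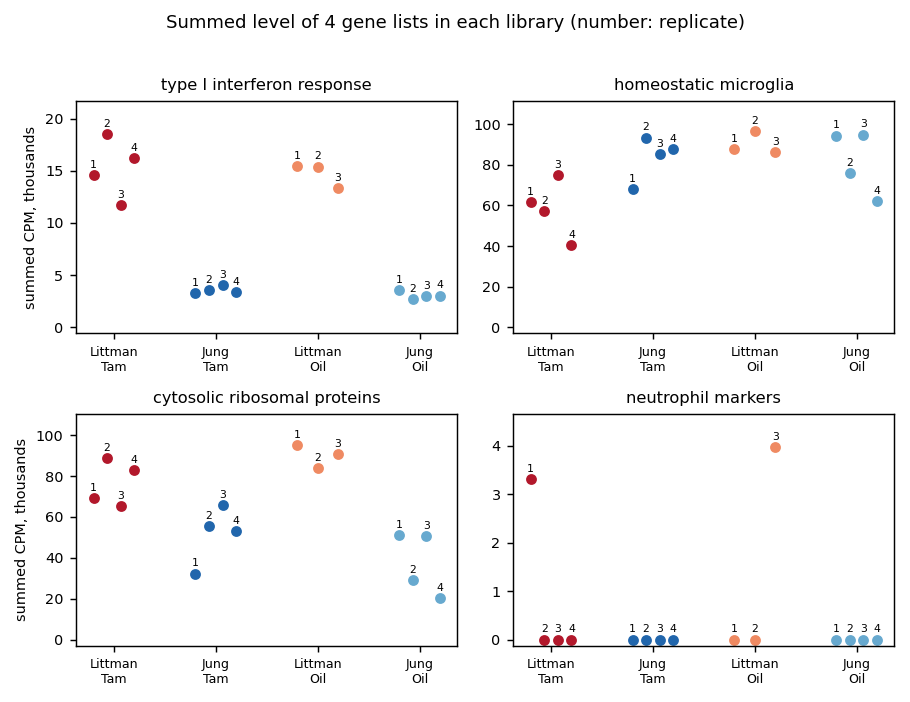
Each point is the summed CPM, divided by 1000 (y), of the genes of 1 list in 1 library, by group (x), with the replicate number above it. The interferon sums separate the lines, the homeostatic sums are lowest in Littman Tam 4, the ribosomal sums are lowest in Jung Tam 1, Jung Oil 2 and Jung Oil 4, and neutrophil markers are present in Littman Tam 1 and Littman Oil 3 and at 0 in the other 13 libraries.

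Markers of other cells were low, with the exception already named. In Littman Tam 1 the neutrophil genes S100a8 and S100a9, which encode calprotectin, stood at 701 and 886 CPM, the granule genes Ngp, Camp and Lcn2 at 638, 516 and 433 CPM, and Ly6g, the antigen used to exclude neutrophils in the sort, at 1 count. The part of these transcripts in the differences was not tested; the list result for interferon genes without this library is given above. The monocyte list summed to 141 to 568 CPM in Littman Tam and 10.6 to 17.1 CPM in Jung Tam, and the 1 member tested, Ms4a4c, was called higher, with 115 counts against 3 (ratio 35.0, counting interval 11.7 to 172). Its part in the result was not tested. Border macrophage markers summed to 48.7 to 108 CPM and 84.8 to 121 CPM, and lymphocyte markers to 156 to 448 CPM and 317 to 514 CPM, overlapping between groups. No lymphocyte, border macrophage, astrocyte, oligodendrocyte or endothelial marker that could be tested was called, against 5.48% of all genes. Each of these lists had 1 or 2 genes tested. No neutrophil, erythroid or neuronal marker passed the filter on low counts, which asks for counts in several libraries. That filter left 1 endothelial gene. With a mean of at least 20 CPM in any group as the filter instead, 4.01% of all genes were called. There 2 of 4 monocyte markers tested were called higher, 1 of 3 endothelial markers was called lower, and none of 6 neutrophil markers was called. Without any filter, where 2.14% of all genes were called, 4 of 12 monocyte and 6 of 8 neutrophil markers were called higher. In that fit 1 of 6 endothelial markers was called lower.

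The oil libraries asked whether the Littman to Jung difference was present without tamoxifen. Line, YFP allele and BLZ945 label go together there too. Littman Oil and Jung Oil differed in 471 genes (9.12%), 347 higher (6.72%) and 124 lower (2.40%). Of the 347 higher genes, 66 were cytosolic ribosomal protein genes, whose level was low in Jung Oil 2 and Jung Oil 4. Of the 283 genes called after tamoxifen, 147 were called after oil too, all in the same direction, which is 51.9% of the tamoxifen calls and 31.2% of the oil calls. The overlap was 131 of the 200 higher genes (65.5%) and 16 of the 83 lower genes (19.3%). The higher genes had a median of 1.36 after tamoxifen and 1.32 after oil, the lower genes -1.11 and -0.58, and 273 of the 283 had the same sign in both. Of the 42 called interferon genes 40 were called after oil, and the list median there was 2.82. Cxcl10 was at 298 to 429 CPM in Littman Oil and at 0 counts in all 4 Jung Oil libraries, at least 95.2-fold higher. Of the 9 called homeostatic genes none was called after oil, where the list median was -0.27. The Littman groups differ in sex, with 3 of 4 libraries female after tamoxifen and 0 of 3 after oil. The part of sex in this was not tested.

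The difference between these Littman to Jung differences, tamoxifen minus oil, was tested by itself. No gene of 5163 was called (0%) by edgeR or by limma-voom, DESeq2 called 1, and 417 genes had an unadjusted p below 0.05 in edgeR. The smallest adjusted p was 0.234 in edgeR, that of Cdkn1a, whose Littman to Jung difference was larger after tamoxifen by log2 2.40 ± 0.505. Genes called after tamoxifen and not after oil, such as Bax, Cx3cr1 and Slc2a5, are therefore not shown to differ between the treatments. With sex as a covariate 0 genes were called for tamoxifen minus oil. The number of oil calls was 212 without the 3 Jung libraries that stand apart, 268 without Jung Oil 2, 277 without Littman Oil 1 and 279 without Littman Oil 3.

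A comparison of the same lines in tamoxifen-treated pups was made as well, on other samples and with no BLZ945 in any label. It set 5 Littman libraries heterozygous for CreERT2 against 4 Jung libraries that carry the YFP allele, in a table of 19 libraries fitted together. Line and YFP allele cannot be told apart there either. There 477 of 7076 genes were called (6.74%), 270 higher in Littman (3.82%) and 207 lower (2.93%). Of the 283 genes 245 were tested in pups, and 116 of these (47.3%) were called, all in the same direction as in the BLZ-titled libraries. They made up 24.3% of the postnatal calls. The 80 shared higher genes were 48.5% of the 165 tested, and the 36 shared lower genes 45.0% of the 80 tested. The other 38 did not pass the filter on low counts there. Median differences in pups were 0.55 over the 165 higher genes and -0.38 over the 80 lower genes, against 0.00 over all genes, and ages and tables differ from those of the BLZ-titled libraries. The number of postnatal calls was 314 in DESeq2, 303 without Jung Tam 3 and 296 without Littman Cre+ 1 of that table.

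Gene by gene, the postnatal values followed the groups described above with exceptions. Cdkn1a was at 174 to 429 CPM in 5 Littman pups' libraries and at 94.8 to 157 CPM in 4 Jung libraries, 305 ± 94.1 against 119 ± 26.9 (mean ± SD; log2 1.36 ± 0.172 SE, adjusted p 1.69e-07 in edgeR). The 5 tamoxifen-treated libraries titled Littman without Cre, wild type at Cx3cr1, held 43.0 to 66.3 CPM. Bax was not called in pups (log2 0.35, adjusted p 0.504 in edgeR). Axl was at 180 to 385 CPM against 16.7 to 85.2 CPM (log2 2.42), H2-D1 at 995 to 1305 CPM against 424 to 606 CPM (log2 1.10), and Fscn1 at 182 to 256 CPM against 420 to 541 CPM (log2 -0.99), each without overlap. Cx3cr1 was lower in the Littman pups too, at 1364 to 1632 CPM against 2058 to 2264 CPM (log2 -0.49, adjusted p 8.32e-06 in edgeR), while the Cre-negative controls held 3939 to 4154 CPM. Of 33 interferon genes tested in pups 21 were called, all higher (median 0.96), where 3.82% of all genes were called higher. Ifitm3 was at 38.5 to 90.0 CPM against 0 to 11.0 CPM. Of 38 homeostatic genes 15 were called, all lower, where 2.93% of all genes were called lower. Apoe and Ccl4 were not called (log2 0.06 and 0.43). Of 68 ribosomal protein genes 3 were called, all lower, against the same 2.93% of all genes.

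**Figure D5:**
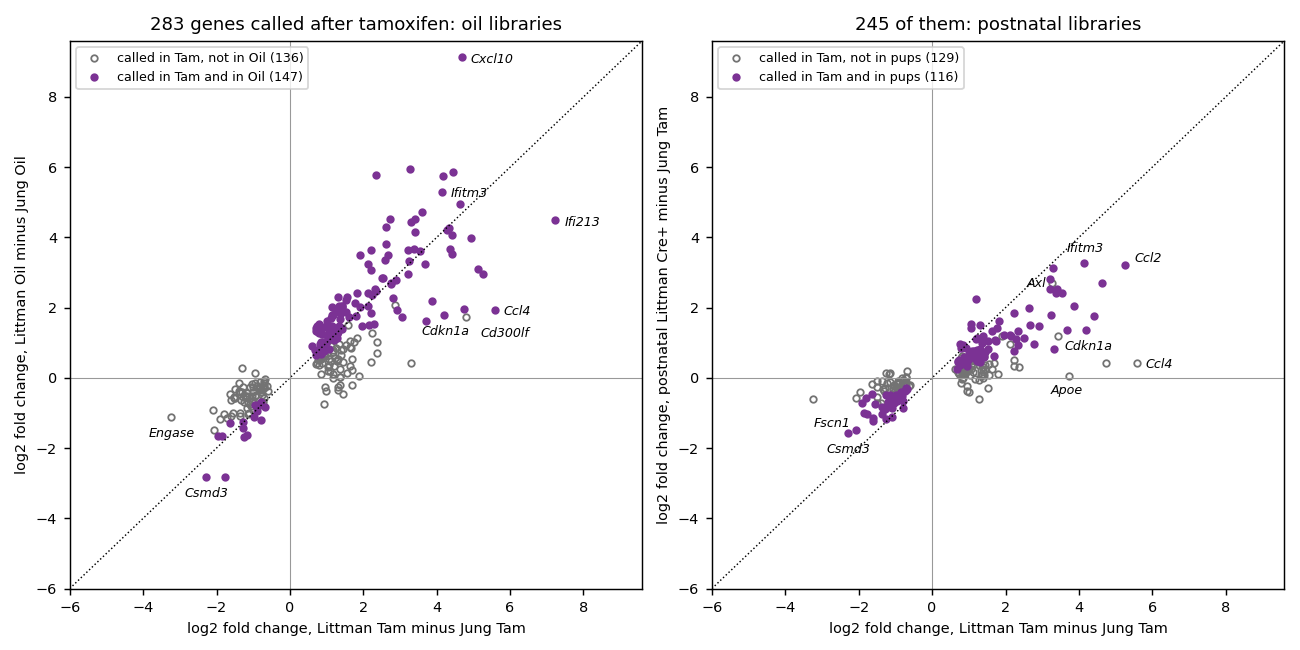
Both panels place the genes called after tamoxifen by their log2 fold change, Littman Tam minus Jung Tam (x), against the Littman minus Jung fold change (y) in the oil libraries (left, 283 genes) or in tamoxifen-treated pups (right, 245 genes); filled points were called in both comparisons and the dotted diagonal marks equal values. The filled points, 147 on the left and 116 on the right, all share their sign with the x axis, and Apoe and Ccl4 lie near 0 in pups.

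Levels in the adult-titled libraries, whose labels place BLZ945 with the Jung line, were taken from separately normalised tables and were not compared by a test. Cdkn1a was at 48.8 to 113 CPM in 4 tamoxifen-treated adult Jung libraries and at 199 to 242 CPM in 3 adult Littman libraries. Ifitm3 was at 3.90 to 27.0 CPM and 3.50 to 43.4 CPM, Axl at 0 to 30.1 CPM and 3.62 to 9.93 CPM, and Cxcl10 at 0 to 19.6 CPM and 0 to 3.62 CPM. None of these adult libraries held Ifitm3 or Axl at the level of Littman Tam, where the lowest values were 554 and 201 CPM.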

How the data were processed

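RNA of sorted microglia was measured by CEL-Seq2, a 3′ end method with molecular identifiers, in single libraries per the labels' protocols. The deposited tables hold counts per gene, per the file headers; UMI-tools, Trim Galore, HISAT2, featureCounts and the build GRCm38 are named in the submitters' processing notes, with versions not given in the sources used here. The counts are whole numbers with no normalization. Whether counting used strand is not given in the sources used here.

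All 15 BLZ-titled libraries entered one fit with edgeR 4.0.16 (R 4.3.3): filterByExpr by group, TMM scaling, quasi-likelihood F test, Benjamini-Hochberg adjustment over all 5163 genes, and contrasts for tamoxifen, oil and their difference. The 19 postnatal libraries were fitted likewise. CPM used TMM-scaled totals. A standard error is the fold change divided by the square root of F. Named were Cx3cr1, Cdkn1a and Gt(ROSA)26Sor, the 12 steepest called genes each way with a mean of at least 20 CPM, and up to 4 called genes per list by lowest p. Other genes, including those named as not called, were chosen after their values were seen. Members and the 26 gene lists were chosen with earlier results of these data known. Groups follow titles. The test was checked on simulated counts. Alternatives were DESeq2 1.42.0, limma-voom 3.58.1, other scalings and filters, a replicate block, sex, fewer libraries, and each library left out in turn. Promoter sequence came from RefSeq, GRCm38.p6. Results for some items are not reported here.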

Additional observations from a re-analysis of the deposited data

Results flagged for a closer look

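Among 144 groups of 4 libraries examined for the named genes and marker sums, 8 held a library with an unusually large gap. The gap is that to the nearest of the other 3, as a share of the range of the group. Chance alone does this in about 1 group of 20, so the 8 are close to the number that chance would give. The cases below only describe the values. Neutrophil markers summed to 3312 CPM in Littman Tam 1 and to 0 in the other Littman Tam libraries, a gap of 1 times the range. The remaining cases were smaller. Abcb4 was at 93.0 CPM in Jung Tam 3 against 56.8 to 58.3 in the others (0.96 of the range). Bcl9l was at 207 CPM in Jung Tam 1 against 85.3 to 93.0 (0.936). C5ar1 was at 130.2 CPM in Littman Tam 4 against 43.8 to 56.5 (0.853), and Ifi213 at 30.2 CPM in Littman Tam 3 against 115 to 128 (0.859). Engase was at 65.6 CPM in Jung Tam 3 against 31.8 to 34.5 (0.919). Summed lymphocyte markers were at 317 CPM in Jung Tam 3 against 484 to 514 (0.846), and summed oligodendrocyte lineage markers at 195 CPM in Littman Tam 2 against 115 to 121 (0.923).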

How the results depend on the processing

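The tamoxifen comparison called 283 genes, and 194 to 394 under the alternatives that kept all 8 libraries: 278 and 274 with other scalings, 219 in DESeq2, 245 in limma-voom, 394 of 18397 genes without the low-count filter, 312 of 7775 genes when the filter was a mean of at least 20 CPM in any group, 290 with the 8 libraries alone and 194 with sex as a covariate, where 158 (81.4%) were higher against 70.7% before. Leaving out 1 library gave 153 to 333 calls for tamoxifen, 268 to 579 for oil and 296 to 569 for the postnatal comparison. Oil calls numbered 212 without the 3 Jung libraries that stand apart, an alternative chosen after seeing the data, and postnatal calls 314 in DESeq2. The test of the difference between tamoxifen and oil called 0 genes in edgeR, 1 in DESeq2 and 10 without the low-count filter, and 0 in each of the 15 fits without 1 library; the cause was not tested. Of 63 named genes tested, 45 kept direction and call status in each of up to 18 alternatives, 18 lost the call in at least 1, and 0 reversed. Most of these genes were picked as the steepest or lowest-p calls of this comparison, so their count does not stand for all calls. Of all 283 calls, 151 were kept without Littman Tam 2 and 182 with sex as a covariate. Whether the replicate numbers pair the samples is not settled. Correlations of same-numbered deviations were 0.22, 0.07, -0.05 and 0.05, but 3 of 4 Littman Tam libraries correlated best with their own number. A fit with the replicate number as a block called 236 genes for tamoxifen, with 2 of 14 complement and Fc receptor genes and 3 of 69 ribosomal protein genes. With sex as a covariate the calls of C1qb, C3ar1, C5ar1, Ccdc85c, Ccnd1, Ccng1, Gas6, Gpx1, Padi2, Ppm1l and Slc40a1 were lost. With 184513 to 236106 counts per tamoxifen library, genes of few counts are limited by depth, and their ratios rest on counting intervals.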
